A study of Mus musculus with 84 samples.

Results

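The genes examined were 10 genes of fatty acid uptake, Cd36, Lpl, Fabp4, Fabp5, Slc27a1, Slc27a4, Acsl1, Vldlr, Angptl4 and Lrp1, out of 21851 protein-coding genes. They were chosen by name, with earlier results of these data known, and followed through peak lists of 4 histone marks at their promoters, over their gene bodies and in the 50 kb to either side. The lists came from CUT&Tag, in which an antibody tethers a transposase that cuts and tags the DNA next to a histone mark, on adipocyte nuclei from epididymal adipose tissue (epiAT) of AdipoERCre x NuTRAP mice. In these mice a tamoxifen-inducible Cre expressed in adipocytes switches on a label with which their nuclei can be pulled down, and every group, controls included, carried these alleles and had received tamoxifen.

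The 84 libraries formed 8 diet groups for each of 4 marks, with 2 or 3 libraries each. In the 12-week cohort, H mice had eaten a high-fat diet (HFD) for 12 weeks and were 18 weeks old, and HC mice had then been returned to chow for 8 weeks, which brings about weight loss (WL), and were 26 weeks old. Their controls C and CC_s had eaten only chow and were 18 and 26 weeks old. In the 25-week cohort, HH mice had eaten HFD for 25 weeks and were 31 weeks old, HHC mice had then been fed chow for another 8 weeks up to an age of 39 weeks. The groups CC_l and CCC were their chow controls at 31 and 39 weeks. Diet groups were compared only with the control group of their own age (H with C, HC with CC_s, HH with CC_l, HHC with CCC). The labels of 4 H3K4me3 libraries of the 25-week cohort contradict each other: by the treatment field CC_l replicate 2 and CCC replicate 3 belong to HH, HH replicate 2 to CCC and HH replicate 3 to CC_l. The titles were followed, and every H3K4me3 value of HH, CC_l and CCC rests on that choice. The submitters describe the replicates as biological ones, and p-values measure the spread between these libraries.

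Fat reaches the adipocyte mostly as triglyceride in circulating lipoproteins. Lipoprotein lipase (Lpl) is made by adipocytes and cuts triglyceride at the capillary wall, Angptl4 inhibits it, and the receptors Vldlr and Lrp1 bind lipoprotein particles and remnants. The released fatty acids enter through the membrane glycoprotein Cd36 and the transport proteins Slc27a1 (FATP1) and Slc27a4 (FATP4), are carried in the cytosol by Fabp4 and Fabp5, and are trapped as acyl-CoA by Acsl1. Many of these genes are targets of PPARγ, the master regulator of adipocytes. Of the marks, H3K4me3 sits at the start sites of transcribed genes and H3K27ac at elements in use, be they promoters or enhancers. H3K4me1 surrounds start sites and covers enhancers, and H3K27me3 lies over chromatin silenced by polycomb.

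A promoter was every position within 2000 bp of a protein-coding transcription start site (TSS), and counted as marked where a peak reached into it by 1 bp or more. The authors' peak caller kept the top 1% of signal blocks of each library, so a promoter without a peak was one that did not reach that rank, not one shown to lack the mark. Depth per library was unknown. The lists held 11249 to 46397 peaks and covered 8.54 to 133 Mb, and the H3K27ac lists covered 9.60 to 24.4 Mb in H and 11.6 to 34.7 Mb in HC against 42.8 to 49.0 Mb in C. The H3K27ac list of CCC replicate 3 covered 20.9 Mb and marked 3865 promoters. That of CCC replicate 1, the other control of HHC, covered 94.3 Mb and marked 11106. Groups with much covered sequence have wider peaks at most genes, so widths and covered lengths were tested after subtracting the median of each library. What remains of the spread in depth was not tested. Whether groups overlap is stated for the widths and lengths as measured unless centred values are named.

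Before the members, 8 promoters that define adipocytes (Adipoq, Plin1, Cidec, Lep, Pnpla2, Lipe, Retn and Acvr1c) were read in every library. They were marked in 95.2% of gene and library pairs for H3K4me3 and in 93.5% for H3K27ac, against 49.4% and 36.3% for macrophage, 48.2% and 27.98% for endothelial, 60% and 31.4% for progenitor and 23.8% and 3.57% for neuron markers. Hepatocyte markers, also read as a list that should be absent, were marked in 22.6% and 30.95% of pairs. These came from Apoa2 (19 and 18 of 21 libraries) and, for H3K27ac, Serpina1a (8 of 21). H3K27me3 was found in 28.1% of the adipocyte pairs, and at Adipoq in 19 of 20 libraries, against 15% of macrophage, 30.6% of endothelial and 42% of progenitor pairs. Macrophage promoters with H3K4me3 numbered 7 to 8 of 8 in HH and 7 in each HHC library, against 3 in each CC_l and 2 to 4 in CCC libraries, by the titles. The libraries of 3 replicates stood apart. HC replicate 3, HH replicate 1 and HHC replicate 3 ranked these promoters at a mean percentile of 30.9 to 32.9 of all marked promoters for H3K27ac, against 97.0 to 99.2 in chow-fed libraries and 66.97 to 98.6 in the other HFD libraries, and they were as low for H3K4me3 (26.1 to 30.3 in the 2 libraries of HC and HHC) and H3K4me1 (14.9 to 24.1). In the same 3 replicates 6 to 7 of 8 endothelial promoters were marked by H3K27ac, against 0 to 3 in chow-fed libraries and 0 to 4 in the other HFD libraries. HHC replicate 1 had H3K27ac at 5 of 5 lymphocyte promoters, against 0 in every chow-fed library. Every test was therefore repeated without these 3 low-rank replicates, a choice made after these values were seen. In nuclei pooled from a tissue, fewer cells of a type and less of a mark per cell cannot be told apart.

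All 10 genes were marked by H3K4me3 in 21 of 21 libraries, which was the case for 39.2% of all promoters. H3K27ac marked 7 of the 10 in every library, against 8.67% of all promoters, and the exceptions were Fabp5 (19 of 21 libraries), Vldlr (17) and Slc27a4 (7). H3K4me1 was present in 22 of 22 libraries only at Acsl1 and Angptl4 (all promoters, 1.57%), in 21 at Slc27a1, in 20 at Cd36 and Lrp1, in 17 at Fabp4, in 16 at Lpl, in 9 at Fabp5, in 7 at Vldlr and in 1 at Slc27a4. H3K27me3 was found at none of the 20 libraries for Cd36, Fabp4, Slc27a1 and Angptl4, as at 52.3% of all promoters, and in 8 libraries at Vldlr, 3 at Lpl and Lrp1, 2 at Fabp5 and 1 at Slc27a4 and Acsl1. Slc27a4 and Vldlr were the members least often acetylated.

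**Figure D1:**
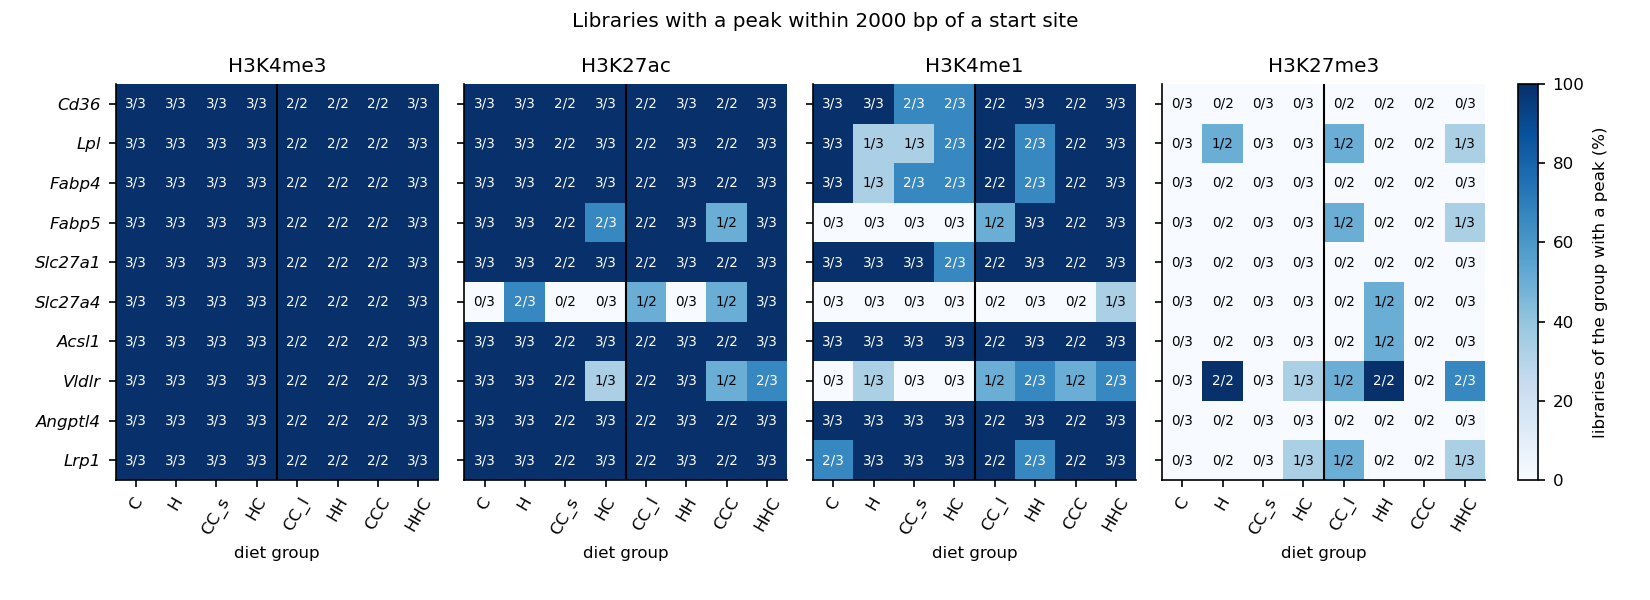
Number of libraries with a peak within 2000 bp of a start site, out of the libraries of the group, for each gene (rows), diet group (columns) and mark (panels), with colour giving the share in percent and the black line separating the 12-week from the 25-week cohort. H3K4me3 is complete for all 10 genes, whereas Vldlr shows H3K27me3 in 2 of 2 H and 2 of 2 HH libraries and in 0 of 3 C libraries.

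A promoter was called gained when every diet library and no control library was marked, and lost in the reverse case. No member was gained or lost in H3K4me3, H3K27ac or H3K4me1 in any of the 4 comparisons. Among all promoters the shares called, in the order H, HC, HH and HHC against their controls, were 1.71%, 0.339%, 1.8% and 1.76% for H3K4me3, 2.08%, 0.796%, 0.851% and 2.38% for H3K27ac, and 0.911%, 0.316%, 2.7% and 4.47% for H3K4me1, and 0 of 10 is near these shares. For H3K27me3, where 2.9%, 0.993%, 1.99% and 2.1% of promoters were called, the call that fell on a member was a gain of Vldlr in H (background of gains, 1.29%). Vldlr, the receptor that brings lipoproteins to the lipase, had H3K27me3 peaks of 877 and 1205 bp in the 2 H libraries and none in the 3 C libraries. In HH they measured 1462 and 891 bp, in HHC 4837, 847 and 0 bp, in HC 0, 0 and 930 bp, in CC_l 5116 and 0 bp, and there was none in CC_s or CCC. Without the 3 low-rank replicates Vldlr was called gained in HHC too, since HHC replicate 3 was the HHC library without a peak, and its H3K27ac was called lost in HC, where HC replicate 3 was the library with a peak.

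Ranks within a library do not depend on its scale, so the total signal of the peaks at each promoter was ranked among all marked promoters of that library. For H3K4me3 the median percentile over libraries was 99.4 for Cd36, 98.7 for Lpl, 97.9 for Angptl4, 97.6 for Slc27a1, 96.9 for Acsl1, 93.1 for Lrp1, 91.3 for Fabp4, 69.9 for Fabp5, 69.7 for Vldlr and 32.7 for Slc27a4. Cd36, with 3 promoter windows, and Acsl1, with 2, sum over more sequence than the others. For H3K27ac 7 genes had medians between 96.1 (Lrp1) and 98.9 (Cd36), followed by 50.8 for Fabp5, 34.7 for Vldlr and 14.1 for Slc27a4, these over the libraries where they were marked. Neighbours overlap: the H3K27ac percentile of Fabp4 ran from 25.6 to 99.7, that of Lpl from 57.7 to 99.4 and that of Cd36 from 84.9 to 99.8.

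The promoters differed in how they ranked in the 3 low-rank replicates. Acsl1 stood at an H3K4me3 percentile of 63.8 in both such libraries and at 84.7 to 99.6 in the others, and Cd36 at 57.7 and 93.8 against 89.7 to 99.8. Fabp4 H3K27ac stood at 25.6, 26.7 and 85.7, with a median of 99.0 in the others, of which H replicate 3 was the lowest at 33.03. Angptl4 kept an H3K4me3 percentile of 97.2 and 97.3 there, Lpl of 92.5 and 94.0, and Lrp1 of 87.8 and 95.3. In H3K4me3 and H3K27ac Acsl1 thus ranked lower in these libraries than in any other, but in H3K4me1 it stood at 29.4, 93.9 and 96.9 against 65.7 to 99.8, and the H3K4me3 of Angptl4, Lpl and Lrp1 lay within the range of the others. For H3K27ac Angptl4 ranked at 87.8, 88.5 and 97.0 in these libraries against 93.3 to 99.7 elsewhere.

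**Figure D2:**
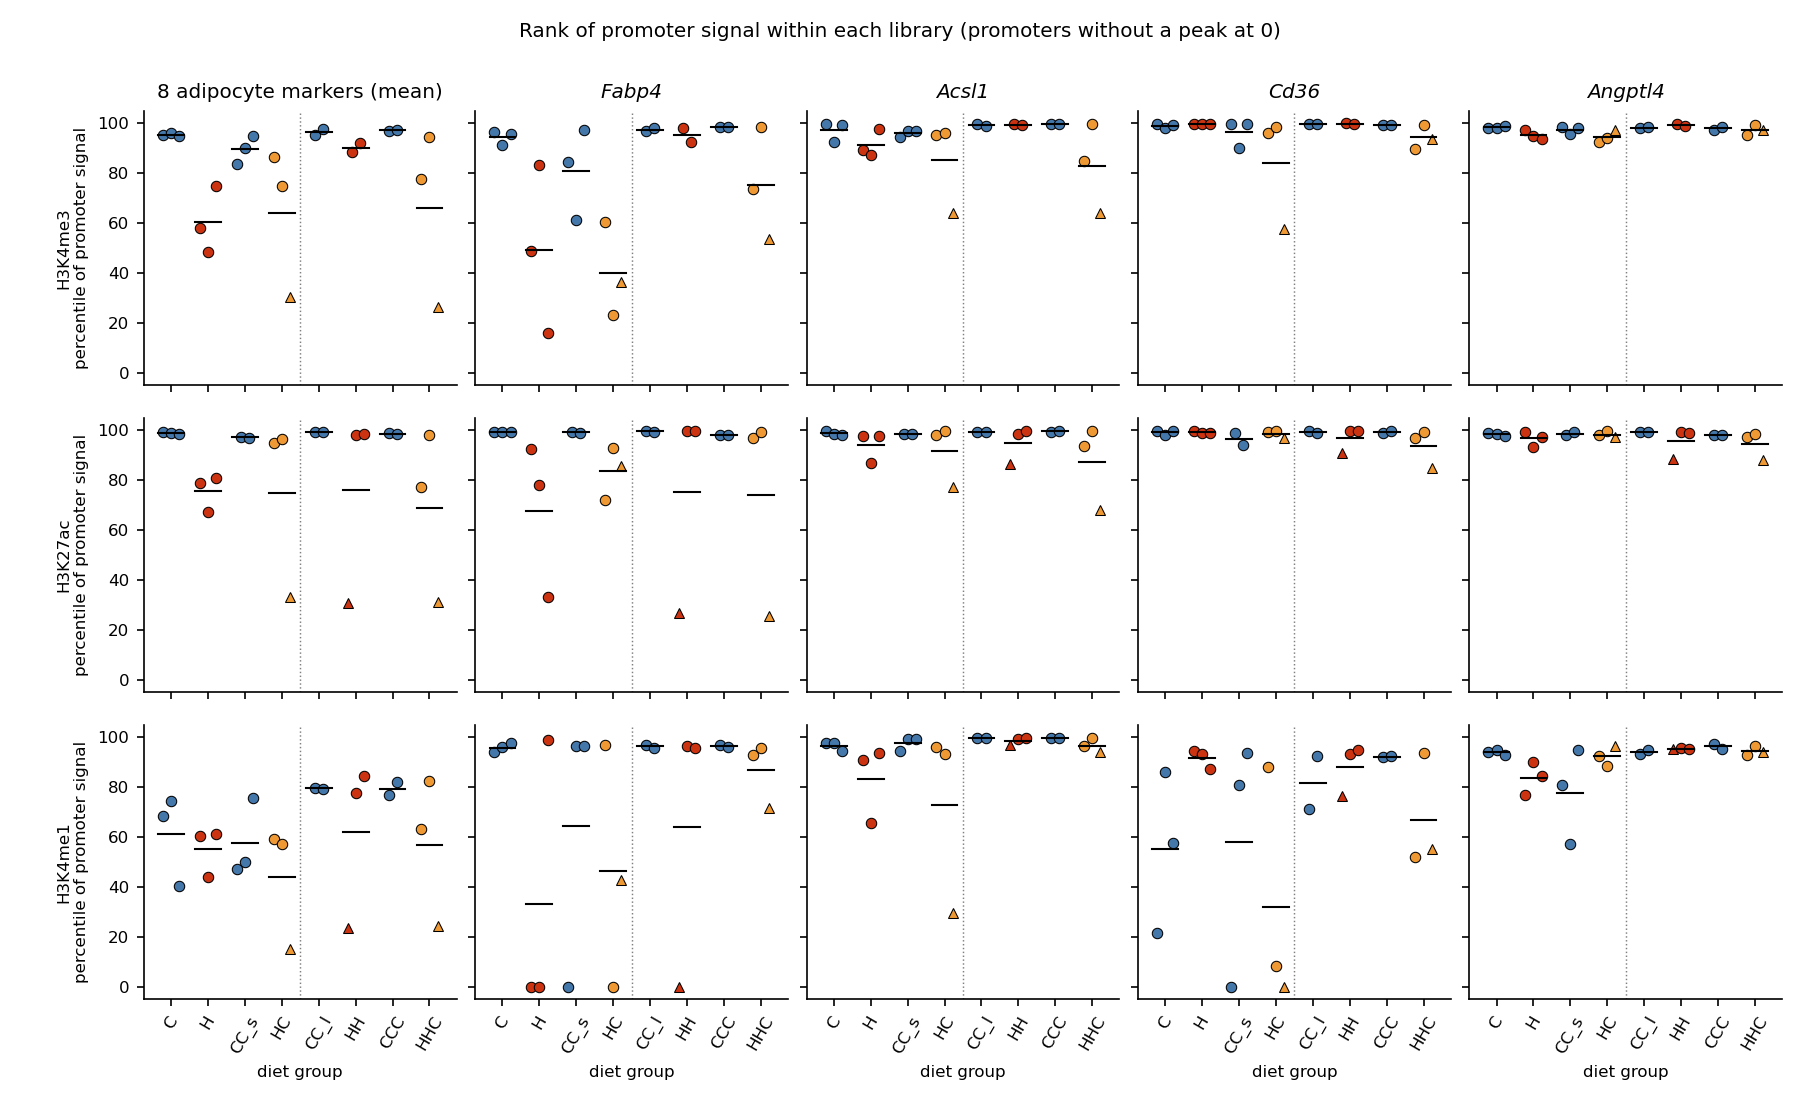
Percentile of promoter signal within each library (vertical axis, promoters without a peak at 0) for the mean of 8 adipocyte markers and for 4 genes, by diet group, for H3K4me3, H3K27ac and H3K4me1 (blue, chow; red, H and HH; orange, HC and HHC; triangles, HC 3, HH 1 and HHC 3; black lines, group means; the dotted line separates the cohorts). The marker mean is 30.9 to 32.9 in the 3 H3K27ac triangles, and Angptl4 stays at 97.2 or above in the H3K4me3 triangles.

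Promoter sequence was available from RefSeq (GRCm38) for 6 of the 10 genes, Cd36, Slc27a1, Slc27a4, Acsl1, Vldlr and Lrp1, as 250 bases before to 50 bases after an annotated start. A choice of 4 is shown because it sets start sites with constant marking beside others without it. Capitals mark any match, on either strand, to 1 of 6 motifs. The nuclear receptor half-site AGGTCA was found in 16.3% of all promoter windows of this length. Its direct repeat with a base between the copies, DR1, is bound by PPARγ with RXR, contains the half-site, and was found in 0.0396%. The CCAAT box was found in 37.4%, the TATA box (TATAAA) in 13.6%, the AP-1 motif (TGACTCA) in 5.2% and the GC box (GGGCGG) in 35.7%. The Cd36 start in the middle of the gene, in a window marked by H3K4me3 and H3K27ac in 21 of 21 libraries, holds 3 CpG, against a median of 7 in all promoters, with a half-site, a CCAAT box and 2 GC boxes. The first Acsl1 start holds 30 CpG and 7 GC boxes and lies in a window marked by H3K4me3 in every library, whereas the second, 19.929 kb into the gene, holds 4 CpG and 2 CCAAT boxes, in a window marked by H3K4me3 in 12 of 21 and by H3K4me1 in 20 of 22 libraries. Vldlr, the member most often marked by H3K27me3, holds 23 CpG at the second of its RefSeq starts, above the upper quartile of 20. A match is a string of letters in the window and not a shown binding site.
Cd36, chr5:17835847-17836146, minus strand: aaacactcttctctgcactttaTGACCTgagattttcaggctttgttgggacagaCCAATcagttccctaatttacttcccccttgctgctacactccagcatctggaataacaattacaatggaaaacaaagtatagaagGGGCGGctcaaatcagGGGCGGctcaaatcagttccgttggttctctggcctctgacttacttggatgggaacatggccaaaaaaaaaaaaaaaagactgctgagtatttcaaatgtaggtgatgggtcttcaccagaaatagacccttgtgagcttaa
Acsl1 first start, chr8:46470787-46471086, plus strand: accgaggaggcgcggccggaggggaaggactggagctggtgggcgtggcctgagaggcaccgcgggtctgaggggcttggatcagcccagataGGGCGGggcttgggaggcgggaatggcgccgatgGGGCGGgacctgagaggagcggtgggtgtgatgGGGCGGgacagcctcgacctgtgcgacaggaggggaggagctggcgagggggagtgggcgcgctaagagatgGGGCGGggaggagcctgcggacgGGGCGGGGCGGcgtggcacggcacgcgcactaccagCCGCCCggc
Acsl1 second start, chr8:46490716-46491015, plus strand: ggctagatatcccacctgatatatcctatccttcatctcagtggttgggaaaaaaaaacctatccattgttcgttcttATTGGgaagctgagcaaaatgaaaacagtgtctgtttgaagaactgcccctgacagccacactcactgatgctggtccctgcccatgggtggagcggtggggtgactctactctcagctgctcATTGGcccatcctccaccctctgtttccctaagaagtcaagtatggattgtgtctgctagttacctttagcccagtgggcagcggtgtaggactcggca
Vldlr, chr19:27216770-27217069, plus strand: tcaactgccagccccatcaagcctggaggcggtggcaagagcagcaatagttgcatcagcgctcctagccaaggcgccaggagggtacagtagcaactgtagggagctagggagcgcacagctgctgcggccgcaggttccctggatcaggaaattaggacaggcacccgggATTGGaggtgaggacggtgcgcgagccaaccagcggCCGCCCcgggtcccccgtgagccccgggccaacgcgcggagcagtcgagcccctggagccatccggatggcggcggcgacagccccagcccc

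The next question was whether peaks at these promoters were wider or narrower after HFD and after WL. Width was the summed length of the peaks that touch the promoter, and log2 widths were compared with limma in a fit of all libraries of a mark, as the mean of both cohorts, for obese mice (H and HH) and for WL mice (HC and HHC) against their controls. A promoter entered a test only when every library of the groups had a peak. No member passed an adjusted p of 0.05. Few promoters did: 7 of 9028 for H3K4me3 in obese mice (0.0775%), 4 of 3385 for H3K27ac (0.118%) and 1 of 697 for H3K4me1 (0.143%), and 0 of 9511, 2444 and 505 (0%) after WL, where 1095, 324 and 74 promoters had an unadjusted p under 0.05. The values that follow are therefore given as measured.

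Lpl, the lipase itself, lies on chr8:68880491-68907448 (plus strand). In the 12-week cohort its H3K4me3 peaks measured 10277, 10594 and 10089 bp in C against 4748, 5171 and 2057 bp in H, and 7157, 5773 and 7980 bp in CC_s against 4325, 4818 and 5513 bp in HC. In the 25-week cohort they measured 10293 and 14470 bp in CC_l against 9206 and 6851 bp in HH, and 14068 and 15356 bp in CCC against 6484, 13740 and 6880 bp in HHC. As measured and by the titles, every diet library lay below every control library in each of the 4 comparisons, as at 7 of the 8575 promoters marked in all libraries (0.0816%) and at no other member. That share is a description and not a test, was not among the planned results, and was counted on uncentred widths, which follow the covered sequence. On centred log2 widths the separation at Lpl held in 3 comparisons, since HC replicate 2 (1.76) lay above CC_s replicate 3 (1.65), and no share over all promoters was counted. With the library medians removed the difference was -0.85 ± 0.20 (log2, SE) in obese mice (limma, adjusted p = 0.093; -0.78 and -0.92 in the 12-week and 25-week cohorts) and -0.72 ± 0.19 after WL (adjusted p = 0.107; -0.48 and -0.96). Grouped by the treatment field, the obese difference was -0.02 ± 0.23 (adjusted p = 0.999), since the 25-week part turned from -0.92 to 0.74, and the WL difference was -0.49 ± 0.22 (adjusted p = 0.51). The direction at Lpl in HH thus rests on the titles. Without the 3 low-rank replicates the differences by title were -0.85 ± 0.20 (adjusted p = 0.0622) and -0.63 ± 0.21 (adjusted p = 0.322).

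H3K27ac at the Lpl promoter gave 9355, 8770 and 9754 bp in C and 3913, 681 and 941 bp in H, 8510 and 4843 bp in CC_s and 2756, 3895 and 3296 bp in HC. In the older cohort it gave 15005 and 18204 bp in CC_l, 5022, 7021 and 13699 bp in HH, 15797 and 7574 bp in CCC, and 5705, 14817 and 5014 bp in HHC. As measured, the groups overlapped for HHC and CCC only, where the lower CCC value was that of CCC replicate 3. On centred widths they overlapped for HC and CC_s only. The log2 difference was -1.16 ± 0.34 in obese mice (adjusted p = 0.168) and -0.86 ± 0.35 after WL (adjusted p = 0.308). The H libraries and CCC replicate 3 covered little of the genome for this mark, as given above, and their part in the result was not tested beyond the centring.

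The inhibitor Angptl4 (chr17:33773750-33781830, minus strand) shared the Lpl pattern in part, and the genes were not tested against each other. Its H3K4me3 peaks measured 6488, 7075 and 10360 bp in C and 5947, 4424 and 3553 bp in H, apart as measured but not on centred widths. By the titles they measured 7391 and 9436 bp in CC_l and 12603 and 13656 bp in HH, the other way. On centred widths of both H3K4me3 and H3K27ac, HHC lay below CCC and HC overlapped CC_s. Its H3K4me3 width ran from 3237 to 13656 bp over the 21 libraries, and differed by 0.13 ± 0.19 (adjusted p = 0.922) in obese mice and by -0.48 ± 0.18 (adjusted p = 0.276) after WL. Its H3K27ac width measured 11841, 7272 and 7590 bp in C and 5582, 1764 and 3475 bp in H, but 14884 and 13805 bp in CC_l and 4424, 14279 and 16245 bp in HH, and the 25-week groups overlapped. The lowest HH value was that of HH replicate 1.

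The receptors Lrp1 (chr10:127538161-127621148, minus strand) and Vldlr (chr19:27216484-27254231, plus strand) showed no mean H3K4me3 width difference much beyond its error (obese, -0.16 ± 0.23 and -0.02 ± 0.18; WL, -0.21 ± 0.22 and -0.17 ± 0.17; adjusted p 0.776 or more). By the titles the obese means averaged opposite signs. The 12-week and 25-week parts were -0.53 and 0.21 for Lrp1 and -0.35 and 0.31 for Vldlr. By the treatment field Vldlr differed by -0.39 ± 0.17 in obese mice (adjusted p = 0.999). Lrp1 H3K27ac measured 11028, 11764 and 7907 bp in C and 1172, 827 and 2139 bp in H, without overlap, and 13882 and 13439 bp in CC_l against 5661, 13352 and 14475 bp in HH, with overlap. The mean difference in obese mice was -0.93 ± 0.35 (adjusted p = 0.263), made up of -1.55 in the 12-week and -0.31 in the 25-week cohort, and after WL it was 0.06 ± 0.37. Vldlr had H3K27ac peaks of 406 to 3754 bp where it was marked, and none in HC replicates 1 and 2, CCC replicate 3 and HHC replicate 3.

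Of the transporters, Cd36 (chr5:17781690-17888801, minus strand) had the widest promoter marking. Its 3 windows summed to 17491, 14935 and 18258 bp of H3K4me3 in C, 10275, 13257 and 6717 bp in H, 10046, 4137 and 15802 bp in CC_s, and 6764, 7250 and 3897 bp in HC. In the 25-week cohort they summed to 15946 and 27547 bp in CC_l, 29009 and 28859 bp in HH, 26980 and 24856 bp in CCC, and 11837, 27618 and 13706 bp in HHC. After centring there was no difference in obese mice (0.03 ± 0.29, adjusted p = 0.981) and -0.69 ± 0.27 after WL (adjusted p = 0.31), or -0.43 ± 0.27 without the 3 low-rank replicates. The 2 inner windows carried H3K4me3 and H3K27ac in 21 of 21 libraries, and the farthest upstream window carried them in 13 and 14. H3K4me1 at Cd36 went the other way in obese mice (1.16 ± 0.53, adjusted p = 0.308), with 837, 6307 and 1407 bp in C and 4682, 4359 and 5096 bp in H, so that the H values lay inside the range of C.

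Slc27a1 (chr8:71568882-71587302, plus strand) had H3K27ac widths of 9705, 10535 and 8483 bp in C and 2057, 442 and 1755 bp in H, and of 9793 and 11506 bp in CC_l and 3748, 11400 and 10986 bp in HH. The groups were apart in the 12-week cohort only, and the mean difference was -0.98 ± 0.35 (adjusted p = 0.237; -1.60 and -0.36 in the cohorts). The test of the difference between cohorts called no gene for any mark or measure, members included. Slc27a4 (chr2:29802634-29817522, plus strand), broadly expressed in other tissues, had the lowest median H3K4me3 width of the set (1713 bp, from 425 to 2965 bp). Its H3K27ac peak appeared in 3 of 3 HHC libraries (3151, 1632 and 1324 bp), 2 of 3 H libraries (460 and 335 bp), 1 of 2 CC_l libraries (617 bp) and 1 of 2 CCC libraries (2464 bp), and in none of C, CC_s, HC and HH.

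Inside the cell, Fabp4 (chr3:10204088-10208576, minus strand), the main fatty acid carrier of adipocytes, had the lowest H3K27ac difference of the members in obese mice. H3K27ac peaks measured 12561, 13162 and 9072 bp in C and 2819, 509 and 657 bp in H, and 9698 and 12083 bp in CC_s and 1080, 1847 and 2609 bp in HC. They measured 23723 and 20513 bp in CC_l and 2192, 21501 and 17752 bp in HH, and 14630 and 4552 bp in CCC and 15369, 17711 and 1934 bp in HHC. In the 12-week cohort diet and chow libraries were apart, and in the 25-week cohort they overlapped, although HH lay below CC_l on centred widths, and HH replicate 1 and HHC replicate 3 gave the lowest values. The difference was -1.62 ± 0.49 in obese mice (adjusted p = 0.168; -2.11 in the 12-week and -1.13 in the 25-week cohort) and -1.43 ± 0.51 after WL (adjusted p = 0.224). Without the 3 low-rank replicates it was -1.12 ± 0.28 (adjusted p = 0.127) and -0.99 ± 0.30 (adjusted p = 0.287).

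H3K4me3 at Fabp4 measured 6227, 6183 and 10893 bp in C, 2573, 4465 and 782 bp in H, 3280, 2724 and 5886 bp in CC_s, and 3556, 2110 and 1927 bp in HC. In the 25-week cohort it measured 8099 and 12931 bp in CC_l, 14027 and 9257 bp in HH, 15559 and 15750 bp in CCC, and 6385, 15010 and 5362 bp in HHC. The obese difference was -0.65 ± 0.29 (adjusted p = 0.528), or -0.26 ± 0.29 by the treatment field, and the WL difference -0.86 ± 0.28 (adjusted p = 0.194). Fabp5 (chr3:10012548-10016607, plus strand), the second carrier, differed by 0.00 ± 0.33 and 0.26 ± 0.31, with adjusted p of 0.998 and 0.826.

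Acsl1 (chr8:46471037-46536051, plus strand), which traps fatty acids as acyl-CoA, had H3K27ac peaks of 17105, 11599 and 9408 bp in C and 3103, 986 and 1683 bp in H, and of 5478 and 7843 bp in CC_s and 1571, 7596 and 1280 bp in HC. In the 25-week cohort they spanned 20495 and 18309 bp in CC_l, 2743, 13061 and 33708 bp in HH, 26323 and 11477 bp in CCC, and 6803, 41872 and 2327 bp in HHC. The spread within HH and HHC was larger than any difference between groups of that cohort. Acsl1 H3K4me3 differed by -0.34 ± 0.39 (adjusted p = 0.889) in obese mice and by -1.09 ± 0.37 (adjusted p = 0.223) after WL, and the latter was -0.57 ± 0.32 without the 3 low-rank replicates.

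Over the list, the median difference in obese mice was -0.14 for H3K4me3 (10 members tested; all promoters, -0.03), -0.93 for H3K27ac (9 tested; all promoters, 0.06) and -0.54 for H3K4me1 (4 tested; all promoters, 0.01). After WL it was -0.48 (10 tested; -0.02), -0.43 (7 tested; -0.07) and -1.06 (3 tested; -0.05). Members left out of a test lacked a peak in some library. Without the 3 low-rank replicates the H3K27ac medians were -0.62 and -0.16 and the H3K4me3 and H3K4me1 medians after WL -0.32 and -0.43. The adipocyte markers tested had medians of -0.71 and -0.90 for H3K4me3 (6 and 3 tested) and of -0.79 and -0.81 for H3K27ac (4 tested each), lower than or near those of the members, and the part that a lower share of adipocyte nuclei played in the members' values was not tested.

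**Figure D3:**
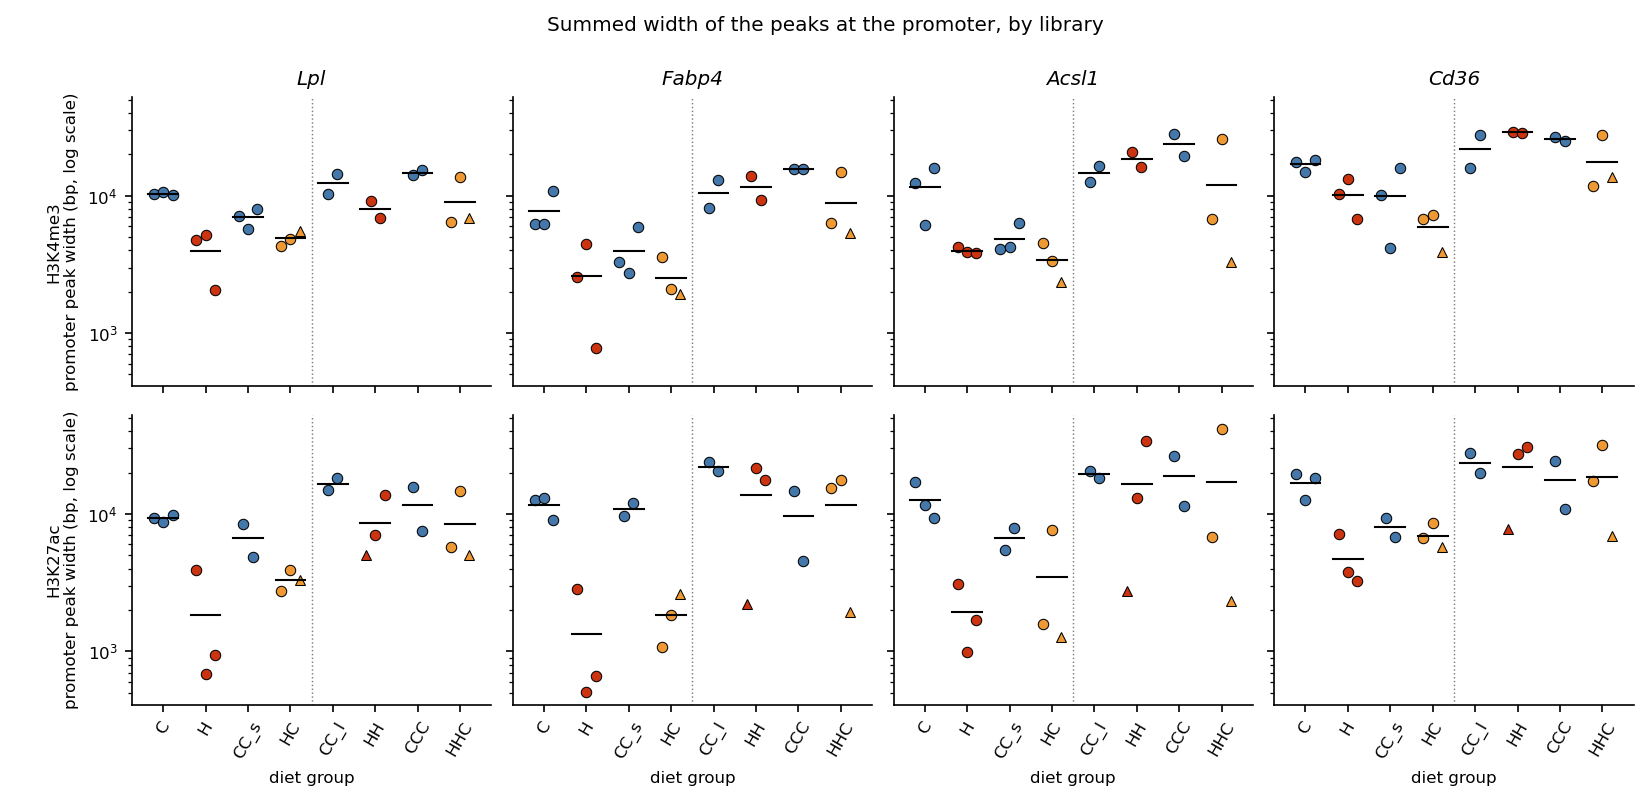
Summed width of the peaks at the promoter (bp, log scale) in each library for Lpl, Fabp4, Acsl1 and Cd36, for H3K4me3 and H3K27ac, by diet group (blue, chow; red, H and HH; orange, HC and HHC; triangles, HC 3, HH 1 and HHC 3; black lines, group means; the dotted line separates the cohorts). Grouped by title, Lpl H3K4me3 lies lower in every diet group than in its control, and the H libraries of Lpl and Fabp4 H3K27ac lie at 3913 bp or below, under all C libraries.

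Enhancers and polycomb domains lie outside promoters, so the base pairs covered by peaks were also summed from 50 kb before to 50 kb after each gene. These loci hold other genes: none for Cd36, Fabp5 and Vldlr, 1 for Lpl, 2 for Acsl1, 3 for Fabp4, 4 for Slc27a4 and Angptl4, 8 for Lrp1 and 9 for Slc27a1, so that marks in the flanks cannot be given to the member alone. The same comparisons were run on log2(covered bp + 1000 bp), a scale that understates changes of loci with little coverage. For H3K27ac 4.42% of 16186 genes passed the test in obese mice and 2.56% after WL, and none of the 10 members did.

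The lowest values among members were those of Acsl1 and Lpl. The Acsl1 locus held 43224, 44206 and 31223 bp of H3K27ac in C, 9089, 3399 and 4899 bp in H, 21532 and 28037 bp in CC_s, and 4499, 10663 and 5972 bp in HC. It held 54894 and 48238 bp in CC_l, 17720, 53722 and 63595 bp in HH, 59344 and 19696 bp in CCC, and 36841, 72054 and 14509 bp in HHC. The 12-week groups did not overlap and the 25-week groups did. The difference was -0.91 ± 0.39 in obese mice (adjusted p = 0.178) and -1.32 ± 0.41 after WL (adjusted p = 0.0761), and without the 3 low-rank replicates -0.60 ± 0.24 (adjusted p = 0.16) and -0.81 ± 0.26 (adjusted p = 0.143). The Lpl locus differed by -0.98 ± 0.51 (adjusted p = 0.258) and by -1.39 ± 0.53 (adjusted p = 0.119), and after WL by -0.67 ± 0.33 without the 3 low-rank replicates. Its lowest values, 6317 and 6939 bp, were those of HC replicate 3 and HHC replicate 3, beside 6476 bp in H replicate 2.

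**Figure D4:**
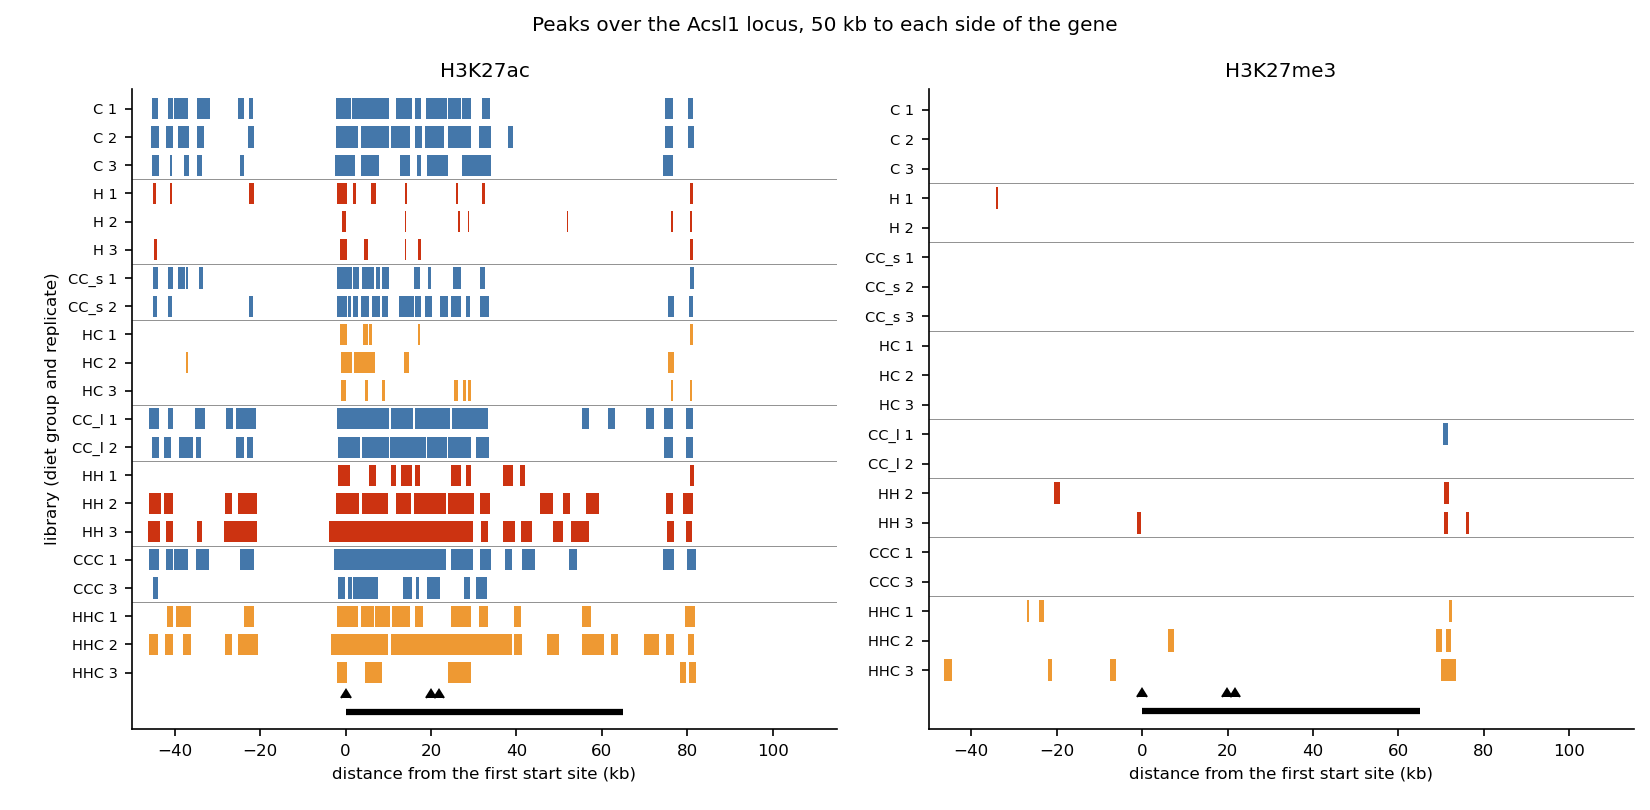
Peaks of H3K27ac (left) and H3K27me3 (right) in each library over the Acsl1 locus, as distance from the first start site in kb, with the black bar marking the gene (0 to 65.014 kb) and arrowheads its start sites at 0, 19.929 and 21.795 kb (blue, chow; red, H and HH; orange, HC and HHC). H3K27ac is shorter in H and HC than in C and CC_s, and H3K27me3 is absent from the lists of C, CC_s, HC and CCC.

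H3K4me1 coverage was called in 9.45% of 15818 genes in obese mice and in 4.65% after WL. Fabp5 was the member called, with a difference of 0.94 ± 0.28 in obese mice (limma, adjusted p = 0.0418) and -0.30 ± 0.28 after WL (adjusted p = 0.479). A call in 1 of 10 members is near the background share. Its locus held 0 bp in all 3 C libraries and 1048, 1979 and 739 bp in H, all of it downstream of the gene, and 998 and 4697 bp in CC_l and 3099, 6324 and 5977 bp in HH, of which 1283, 2798 and 3522 bp lay in the gene body, against 0 and 2043 bp in CC_l. It held 0, 0 and 1896 bp in CC_s, 0 bp in all 3 HC libraries, 2796 and 8480 bp in CCC, and 7477, 6586 and 4476 bp in HHC. The obese libraries lay above C without overlap and overlapped CC_l. The call held without the 3 low-rank replicates (0.98 ± 0.28, adjusted p = 0.0431) and was lost with flanks of 20 or 100 kb, reversing to -0.49 with the latter, and when any 1 of 8 libraries was left out (C replicates 1 and 2, H replicates 1 and 2, CC_l replicate 1 and HH replicates 1, 2 and 3), with differences of 0.61 to 1.28 over all libraries left out in turn. In the same test 3 of 8 macrophage loci (Tyrobp, Itgam and Ptprc) and 3 of 7 endothelial loci (Pecam1, Cdh5 and Kdr) were higher, and their part in the Fabp5 value was not tested. The Fabp5 promoter itself had H3K4me1 in 0 of 12 libraries of the 12-week cohort and in 9 of 10 of the 25-week cohort, whose H3K4me1 lists covered 58.3 to 133 Mb against 16.2 to 61.1 Mb, and cohort and library preparation cannot be told apart.

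The other H3K4me1 values had negative signs where they were large. Lpl differed by -1.65 ± 0.62 in obese mice (adjusted p = 0.0946), or -1.02 ± 0.38 without the 3 low-rank replicates (adjusted p = 0.0951), and HH replicate 1 held 1060 bp against 39386 and 44859 bp in the other HH libraries. Acsl1 differed by -1.10 ± 0.36 after WL (adjusted p = 0.0742), or -0.64 ± 0.26 without them (adjusted p = 0.228). Over the 10 members the median was -0.29 in obese mice and -0.44 after WL, with -0.02 and -0.04 over all genes.

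H3K27me3 coverage was called in 14.3% of 13282 genes in obese mice and in 33.5% after WL, and 5 members (Fabp5, Slc27a1, Slc27a4, Acsl1 and Lrp1) had enough coverage to be tested. Acsl1 was called after WL, at 1.16 ± 0.35 (limma, adjusted p = 0.0194), and was 1.11 ± 0.39 in obese mice (adjusted p = 0.0629). A call in 1 of 5 is not above the background share. The locus held 2339 and 2688 bp in HH and 2451, 4320 and 7802 bp in HHC, against 1311 and 0 bp in CC_l, 465 and 0 bp in H, and 0 bp in every library of C, CC_s, HC and CCC. Both groups of the 12-week WL comparison were thus at 0, and its share of the mean came from the centring alone. The locus passed the filter of 1000 bp through HH and HHC, the highest value was that of HHC replicate 3, and without the 3 low-rank replicates it fell under the filter and was not tested. When 1 library was left out, the call was lost without HC replicate 2, CCC replicate 1 or CCC replicate 3 (0.93, 1.07 and 1.24), and the locus was not tested without HH replicate 3 or any HHC library. Each HH and HHC library and CC_l replicate 1 had a peak between 68.668 and 73.409 kb from the first start, beyond the end of the gene, as the map of the locus shows. In the same test 5 of 7 adipocyte marker loci (Lipe, Lep, Cidec, Plin1 and Acvr1c) were higher.

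Lrp1 was the member with H3K27me3 in its locus in 20 of 20 libraries, from 2840 to 36479 bp, in flanks shared with 8 other genes, and it differed by 0.21 ± 0.30 in obese mice and by -0.26 ± 0.27 after WL (adjusted p = 0.664 and 0.463). Cd36, Lpl, Fabp4, Vldlr and Angptl4, which were not tested, had a median of 0 bp of H3K27me3 over the 20 libraries, and so did Acsl1.

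**Figure D5:**
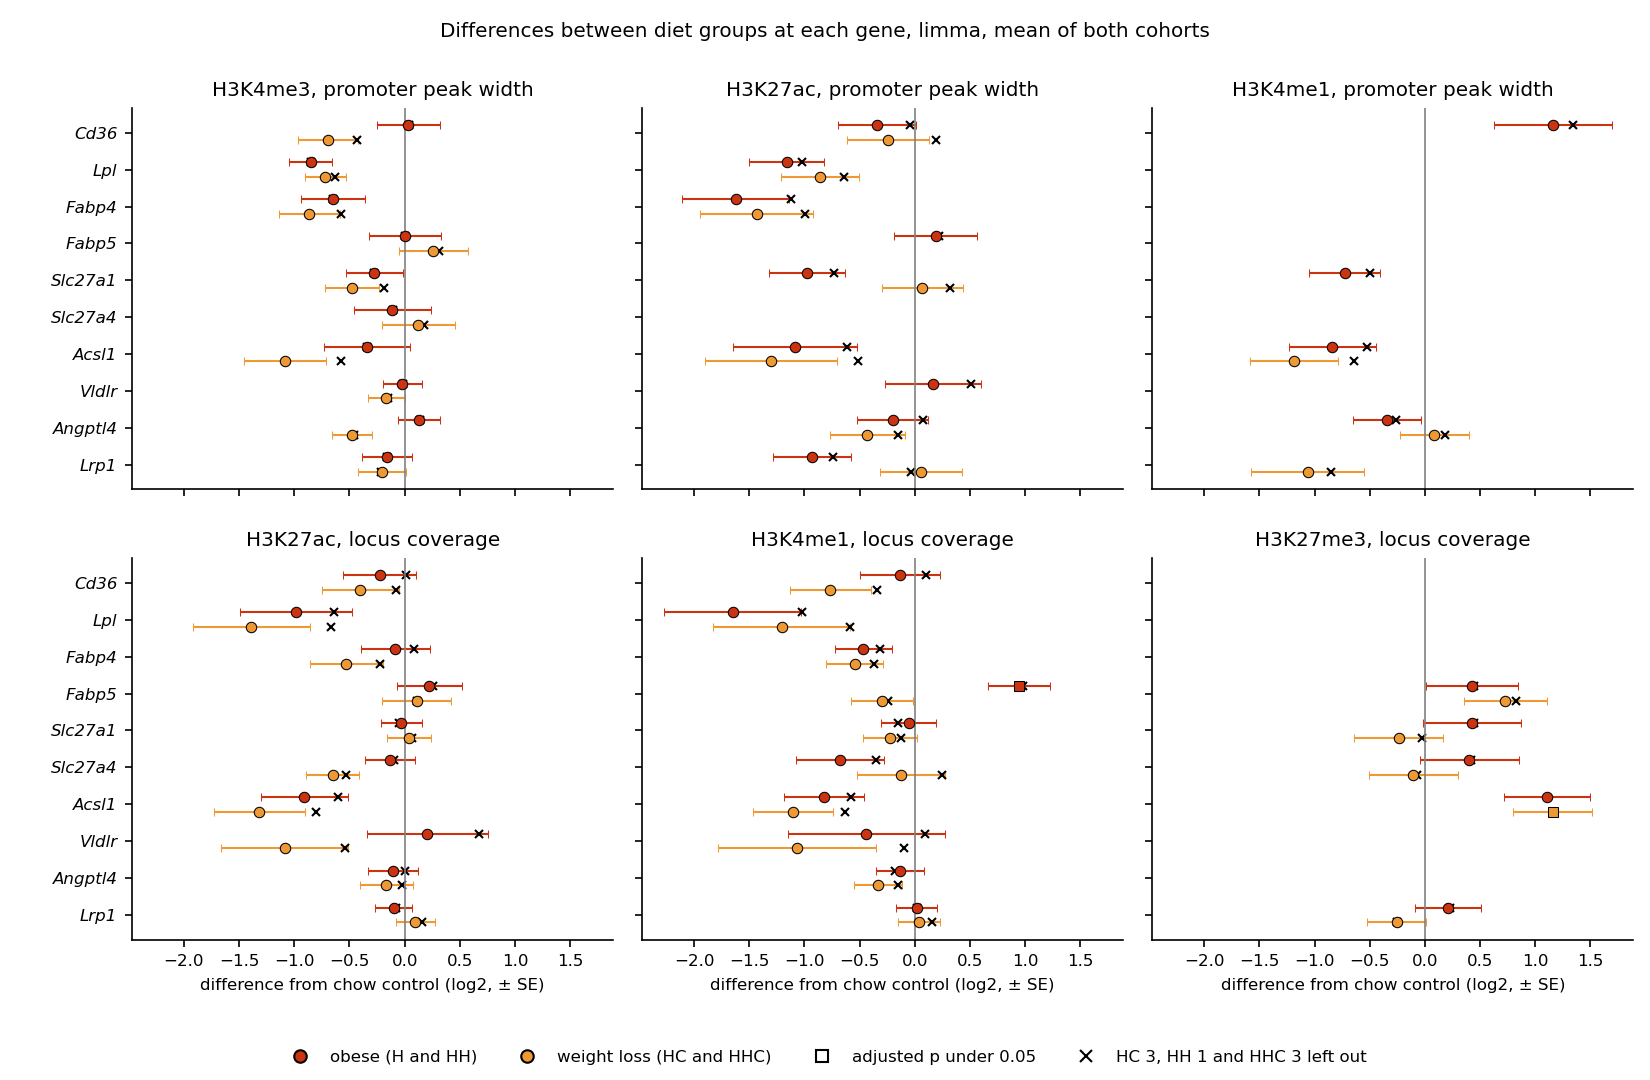
Log2 differences from chow controls (mean of both cohorts, bars ± SE, limma) for each gene in promoter peak width (top) and locus coverage (bottom), in obese (red, H and HH) and weight-loss (orange, HC and HHC) mice, with squares for an adjusted p under 0.05 and crosses for the value with HC 3, HH 1 and HHC 3 left out. The 2 squares are Fabp5 H3K4me1 in obese mice (0.94) and Acsl1 H3K27me3 after weight loss (1.16), the latter without a cross because it was not tested there.

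Single putative enhancers were followed by merging the peaks of all libraries of a mark into regions, of which 106 for H3K27ac and 103 for H3K4me1 lay in the 10 loci. By the rule used for promoters, H had 0 H3K27ac regions gained and 2 lost, HC 0 and 3, HH 1 and 1, and HHC 3 and 1, while 3.01%, 1.51%, 2.94% and 3.32% of all 74961 H3K27ac regions were called. For H3K4me1 these were 1 and 0, 0 and 0, 2 and 1, and 2 and 3 regions, against 1.95%, 0.841%, 5% and 5.6% of 70783 regions. The shares in member loci were thus near those of all regions. For H3K27ac in HHC, 1 of the 2 control lists, CCC replicate 3, covered little sequence, and its part in the gains was not tested. No region was called both in the obese and in the WL comparison of a cohort.

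Of the 7 H3K27ac regions lost, 4 lay upstream of Acsl1, 2 in the Lpl locus and 1 before Slc27a4. At -33.5 kb from its first start, in intergenic sequence (chr8:46435719-46439371), H3K27ac was present in 3 of 3 C and 0 of 3 H libraries, in 1 of 2 CC_s and 0 of 3 HC, in 2 of 2 CC_l and 1 of 3 HH, and in 1 of 2 CCC and 0 of 3 HHC libraries. Intergenic regions at -44.8 kb (chr8:46424808-46427716) and -41.4 kb (chr8:46428590-46430653) were acetylated in 2 of 2 CC_s and 0 of 3 HC libraries and, unlike the former, in 2 of 2 CC_l and 2 of 3 HH libraries. An H3K4me1 region at -44.8 kb (chr8:46424873-46427525) went from 3 of 3 C to 1 of 3 H and from 2 of 3 CC_s to 1 of 3 HC. A region at -21.3 kb from the Slc27a4 start that overlaps an exon of Trub2 (chr2:29778992-29783656) had H3K27ac in 2 of 2 CCC and 0 of 3 HHC libraries, and the same counts held for H3K4me1 at chr2:29779338-29783521. H3K4me1 at 70.7 kb from the Acsl1 start (chr8:46538988-46544446), beyond the gene, was lost in HHC (2 of 2 CCC, 0 of 3 HHC), and in Slc27a1, overlapping an exon (chr8:71576212-71581813), it was found in 2 of 3 CC_s and 0 of 3 HC libraries.

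Regions with more marking after HFD lay near Slc27a1, Lrp1, Fabp5, Slc27a4 and Angptl4. Intergenic sequence at -40.2 kb from the Slc27a1 start had H3K27ac (chr8:71527688-71529682) in 2 of 3 H and 3 of 3 HH libraries, against 0 of 3 C and 1 of 2 CC_l, and H3K4me1 (chr8:71525815-71530117) in 2 of 3 H, 3 of 3 HH and 2 of 3 HHC libraries and in no chow library. H3K4me1 over exons of Colgalt1 and Unc13a, 58.0 kb from the Slc27a1 start (chr8:71623050-71630799), was gained in HH and present in 2 of 3 H and 3 of 3 HHC libraries. It was not called gained in HHC, since CCC was not free of it. An H3K4me1 region at 9.66 kb from the Fabp5 start (chr3:10020039-10024378, intergenic) was gained in H, with 3 of 3 H and 0 of 3 C libraries, and was found in 2 of 2 CC_l and 2 of 3 HH libraries. The region over the Slc27a4 start (chr2:29801819-29804969) was acetylated in 3 of 3 HHC libraries. As given above, H3K27ac at that promoter was also present in CC_l and CCC and absent from HH, so this was not a gain. An exon of Ndufa7 at -46.7 kb from Angptl4 (chr17:33826669-33830338) was acetylated in 3 of 3 HH and 0 of 2 CC_l libraries. Beyond the 3′ end of Lrp1 (chr10:127534573-127537885) H3K4me1 was gained in HHC, and found in 2 of 3 HH and 1 of 3 H libraries and in no chow library. A region inside Lrp1 that overlaps an exon (chr10:127546984-127551903), singled out after its values were seen, had H3K27ac in 3 of 3 HHC libraries and in none of the other 18.

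A region at -11.3 kb from the Lrp1 start (chr10:127631025-127633779, intergenic) was not called. It had H3K27ac in 2 of 3 HHC, 1 of 3 HH, 1 of 3 HC and 2 of 3 H libraries and in no chow library. Its central 300 bases are shown beside those of the Acsl1 region at -33.5 kb because, when the share of control libraries with H3K27ac is taken from that of diet libraries and the 4 differences are added, these 2 had the highest and the lowest value in the member loci (2.0 and -2.67). The former holds an exact DR1 match, found in 0.0974% of the central windows of all H3K27ac regions, and this match contains both half-sites of the window (AGGTCA, 19.4% of windows), beside 1 CCAAT (31.8%). The latter holds no half-site, 3 CCAAT and 1 TATAAA (14.9%). Capitals mark matches on either strand as above, and the letters say nothing on whether a factor binds there.
Lrp1 region, chr10:127632253-127632552, plus strand: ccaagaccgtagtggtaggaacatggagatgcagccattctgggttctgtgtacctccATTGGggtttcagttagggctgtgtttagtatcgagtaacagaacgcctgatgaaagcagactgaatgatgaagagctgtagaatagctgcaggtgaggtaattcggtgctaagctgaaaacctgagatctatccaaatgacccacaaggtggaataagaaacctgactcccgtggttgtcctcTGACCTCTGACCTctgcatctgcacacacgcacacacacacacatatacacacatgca
Acsl1 region, chr8:46437396-46437695, plus strand: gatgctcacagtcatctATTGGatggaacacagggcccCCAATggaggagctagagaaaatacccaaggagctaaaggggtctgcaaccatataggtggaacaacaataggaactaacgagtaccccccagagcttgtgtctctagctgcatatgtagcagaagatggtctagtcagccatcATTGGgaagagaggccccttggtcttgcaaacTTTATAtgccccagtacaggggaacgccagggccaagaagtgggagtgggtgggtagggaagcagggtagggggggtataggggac

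A further 27 genes of fatty acid uptake and lipoprotein lipolysis were read in the same way. In promoter width none was called for any mark (14 and 13 tested for H3K4me3 in obese and WL mice, 8 and 5 for H3K27ac, 2 in obese mice for H3K4me1), with medians of -0.12 and -0.40 for H3K4me3 and of -0.23 and -0.67 for H3K27ac. H3K27ac coverage was lower after WL at 1 of 26 genes tested, Lrpap1, the chaperone of the Lrp1 receptor family (-1.42 ± 0.36, adjusted p = 0.0475). H3K4me1 coverage was lower in obese mice at 2 of 25, Lmf1, which is needed to fold Lpl (-1.98 ± 0.48, adjusted p = 0.0173), and Lrpap1 (-1.01 ± 0.31, adjusted p = 0.0461), and after WL at Lrpap1 (-1.10 ± 0.31, adjusted p = 0.0479). None was higher in either mark, and over all genes 2.56%, 9.45% and 4.65% were called in these 3 tests, so that the counts are near the background.

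H3K27me3 coverage was higher in obese mice at 2 of 18 genes and lower at 1, against a background of 14.3% called, to which this count is near. After WL it was higher at 7 and lower at 2, against a background of 33.5%. Where both groups hold 0 bp the centring alone can give a difference, as at Acsl1. Its part in the values that follow, and that of the low-rank replicates, was not tested. Pparg itself was higher in both (1.56 ± 0.38, adjusted p = 0.013, and 1.62 ± 0.34, adjusted p = 0.00282). Scarb1, a lipoprotein receptor, was higher in obese mice (1.84 ± 0.47, adjusted p = 0.0161). After WL Acsl5, another acyl-CoA synthetase (1.62 ± 0.38), Dbi, which binds acyl-CoA (1.25 ± 0.35), and the caveolar Cav1 (1.23 ± 0.33) were higher, with adjusted p of 0.00495, 0.012 and 0.00993. Lrp8, a receptor related to Vldlr, was lower in both (-1.67 ± 0.45, adjusted p = 0.0212, and -1.79 ± 0.41, adjusted p = 0.00423). The medians over the 18 genes were 0.36 and 0.58, with -0.01 and -0.14 over all genes.

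Presence at these 27 promoters was called in 0 to 2 cases per comparison, direction and mark, against the 0.316% to 4.47% of all promoters given above. A count of 1 of 27 is near most of these shares. The 2 of 27 lost in H for H3K27ac stood against 2.08% of all promoters called there, and this excess was not tested. H3K4me3 was lost in H at Slc27a6 and gained in HH at Gpihbp1, the endothelial anchor of Lpl, and in HHC at Slc27a2. H3K27ac was lost in H at Acsl4 and Fabp1 and in HC at Angptl8, and H3K4me1 was gained in HH at Slc27a3. H3K27me3 was lost in H at Lrp8 and gained in HH at Slc27a3 and in HHC at Cav1. In the 2 HH libraries with Gpihbp1 H3K4me3, 8 of 8 endothelial promoters carried the mark, with Gpihbp1 itself counted among the 8. The part of endothelial nuclei in this gain was not tested. The gains at Gpihbp1 and Slc27a2 involve libraries whose labels conflict.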

How the data were processed

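CUT&Tag of H3K4me3 (21 libraries), H3K27ac (21), H3K4me1 (22) and H3K27me3 (20) was analysed from 84 peak lists. According to the submitters' processing notes and the study's methods, the authors trimmed reads (Trim Galore 0.6.6), aligned them to GRCm38 (Bowtie2 2.4.4, SAMtools 1.13), made coverage tracks (bedtools 2.30) and called peaks per library with SEACR 1.3 in stringent mode, keeping the top 1% of blocks. The deposited signal is whole-number fragment coverage, unscaled, so it was only ranked within a library. Whether marked duplicates were removed is not given in the sources used here.

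Groups follow the sample titles. Promoters came from GENCODE M21 (window 2000 bp). Width and coverage (flank 50 kb, pseudocount and minimum mean 1000 bp) were centred on each library's median and fitted with limma 3.58.1 (R 4.3.3), with Benjamini-Hochberg adjustment over all genes tested and a threshold of 0.05. Presence and merged regions were counted, since within a cohort these groups are too small for an exact test to pass. Tests were checked on simulated data with independent normal noise for each gene, as limma assumes. These data lacked the depth differences and outlying replicates of the real lists, so the check covers the code and not those problems. Tables and figures were made with Python 3.11.15. Genes and regions were named by a rule (all members; called pathway genes, at most 6 per mark; at most 4 regions per mark and direction). The members and lists were chosen with earlier results of these data known. Same-numbered libraries did not consistently deviate together (36 pairs, correlations -0.335 to 0.367, 7 above 0.1), and no pairing was used. The H3K27ac pairs of HH and CC_l stood at 0.367 and 0.169. Deviations were taken from means of small groups, so this check is weak. In 841 pairs of lists of the same mark the share of identical peaks was 0%.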

Additional observations from a re-analysis of the deposited data

How the results depend on the processing

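Alternatives changed window, flanks, pseudocount, filter, centring, normalization, the number of peaks per library, the group labels and the replicate block, and left out each library in turn. Members called were most sensitive for coverage. H3K4me1 calls went from 1 to 0 with 20 or 100 kb flanks, no filter, no centring, quantile normalization, equal peak numbers and the replicate block. That block is the fit that pairs equal replicate numbers, for which the correlations were mixed. The block changed no other count of members called (H3K27me3, 1 with and without it; other measures, 0). H3K27me3 calls went from 1 to 0 with 20 kb flanks, the gene body alone, a pseudocount of 5 kb, no filter, quantile normalization, equal peak numbers or without the 3 low-rank replicates (an alternative chosen after seeing the data), and to 4 with 100 kb flanks. H3K27ac coverage went from 0 to 2 without centring and to 1 with equal peak numbers, H3K27ac width from 0 to 4 without centring (Fabp4, Lpl, Lrp1 and Slc27a1), where the median of all promoters was itself -0.70 in obese mice, and H3K4me3 width from 0 to 2 with log2(width + 500 bp). Without the 3 low-rank replicates, presence calls were 1 for H3K27ac and 2 for H3K27me3, and H3K27ac region calls 18 in place of 11. Grouping by treatment field, no count of H3K4me3 calls changed (0), but Lpl width in obese mice went from -0.85 to -0.02.

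With 1 library left out, calls ranged from 0 to 2 for H3K27ac presence (2 without CCC replicate 1), 0 to 2 for H3K4me1 presence (2 without H replicate 3), 1 to 4 for H3K27me3 presence (4 without CC_l replicate 2), 0 to 2 for H3K4me3 width (2 without HHC replicate 2), 0 to 2 for H3K27ac coverage (1 without HH replicate 1, 2 without HHC replicate 2), 0 to 2 for H3K4me1 coverage and 0 to 1 for H3K27me3 coverage. Regions ranged from 11 to 24 for H3K27ac (24 without CCC replicate 1) and from 9 to 22 for H3K4me1 (22 without HHC replicate 2). Of 2825 alternatives over the 93 member values tested, 142 (5.03%) had another sign, mostly at values within their SE of 0. Among the values followed singly, those that changed sign were Fabp5 H3K4me1 in obese mice with 100 kb flanks (-0.49), Angptl4 H3K4me1 in obese mice with quantile normalization (0.030) and equal peak numbers (0.0098), and Slc27a1 H3K27me3 after WL with equal peak numbers (0.15). The cause was not tested. Depth per library is unknown, and a site outside the top 1% of blocks may still carry the mark.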
